A study of Mus musculus with 8 samples.

Results

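The 1045 wide intronic regions were stretches of accessible chromatin of at least 500 bases inside the genes of mouse medullary thymic epithelial cells (mTECs). Their centres lay outside exons and away from the transcription starts of the annotation used. The regions were taken from 57124 consensus regions by a fixed rule. A region counted when it lay on an autosome, was 500 bases wide or more, and had its centre within a gene, in no exon and more than 2000 bases from every transcription start of the basic GENCODE M21 annotation on mm10. They made up 1.87% of the 55917 autosomal regions, 5.36% of the 19488 autosomal intronic regions and 10.2% of the 10299 autosomal regions of this width.

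The assay was ATAC-seq, which uses the Tn5 transposase to place sequencing adapters wherever DNA is not covered by nucleosomes. The 8 samples formed 4 groups of 2 biological replicates, namely Tspan8neg MHCIIlow, Tspan8pos MHCIIlow, Tspan8neg MHCIIhigh and Tspan8pos MHCIIhigh. All were mTECs from the thymus of untreated wild-type (wt) mice of the strain given as BL6N6, aged 4 to 6 weeks. Cells were depleted of CD45-bearing blood cells, gated as CD45-negative, EpCAM-positive and CDR1-negative, and then split by Tspan8 and MHCII. Tspan8 is a tissue-restricted antigen (TRA) made by a fraction of mTECs, and MHCII rises as mTECs mature and falls again in late stages. The MHCIIlow groups therefore can hold both early and late mTECs, and the labels do not say how many mice were pooled for a sample.

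The consensus regions belonged to all 8 samples together. The per-sample read counts could not be tied to the samples, so depth, normalised counts and differences between the groups are not analysed here. Every value below describes the region set, and the ranges after shares are 95% Wilson intervals, which reflect only how many regions or genes were counted. No test was run, because regions and genes are not replicates of a condition.

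Introns of mammalian genes hold many enhancers, which are short stretches where transcription factors displace nucleosomes and raise transcription from a promoter that can be near or far. Introns also hold alternative promoters, which are often rich in the dinucleotide CpG, as well as silencers and sites of CTCF, the factor that anchors chromatin loops. In epithelia, enhancers are bound by AP-1 (dimers of Fos and Jun proteins) and by grainyhead-like, TEAD, RUNX, ETS and Krueppel-like factors. In mTECs, NF-kB carries the signals of RANK, CD40 and the lymphotoxin receptor that drive maturation. Accessibility alone does not tell these kinds of element apart.

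The sequence at the centre of a few of these regions is shown first, as the plus strand of mm10. The set is the widest member in each of 6 lists of genes relevant to mTECs, with the widest member of Sfi1, the gene with the most members. It shows how one GC-rich region, that of Maml3, differed from the kind that made up most of the set. Each run is the central 200 bases, and capitals mark CpG dinucleotides.
Etv6, chr6:134117442-134117641: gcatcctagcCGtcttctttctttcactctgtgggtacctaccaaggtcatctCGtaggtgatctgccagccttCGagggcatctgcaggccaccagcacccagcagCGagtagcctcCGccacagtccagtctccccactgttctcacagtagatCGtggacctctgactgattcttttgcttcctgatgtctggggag
Nfkb1, chr3:135674936-135675135: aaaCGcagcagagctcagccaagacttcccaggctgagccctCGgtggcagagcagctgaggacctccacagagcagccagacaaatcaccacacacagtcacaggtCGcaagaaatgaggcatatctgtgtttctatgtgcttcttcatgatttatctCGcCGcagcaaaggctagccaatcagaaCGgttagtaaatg
Itga6, chr2:71801986-71802185: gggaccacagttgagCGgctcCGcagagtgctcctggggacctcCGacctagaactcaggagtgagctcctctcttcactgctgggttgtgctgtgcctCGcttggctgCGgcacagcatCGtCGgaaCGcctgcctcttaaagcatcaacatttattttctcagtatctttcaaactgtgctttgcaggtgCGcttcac
Runx1, chr16:92631540-92631739: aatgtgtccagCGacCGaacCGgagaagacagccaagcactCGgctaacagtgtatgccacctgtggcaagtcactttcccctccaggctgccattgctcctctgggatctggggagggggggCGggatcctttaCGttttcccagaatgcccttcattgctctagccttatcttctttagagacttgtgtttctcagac
Plcg2, chr8:117562183-117562382: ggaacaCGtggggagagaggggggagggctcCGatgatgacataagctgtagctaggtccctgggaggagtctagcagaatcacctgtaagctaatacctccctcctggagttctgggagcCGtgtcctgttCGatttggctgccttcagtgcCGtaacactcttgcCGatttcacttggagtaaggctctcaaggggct
Sfi1, chr11:3184797-3184996: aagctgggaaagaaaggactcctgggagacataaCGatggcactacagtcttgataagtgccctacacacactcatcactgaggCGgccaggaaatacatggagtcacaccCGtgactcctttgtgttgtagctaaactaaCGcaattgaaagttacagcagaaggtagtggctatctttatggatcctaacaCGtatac
Maml3, chr3:52102414-52102613: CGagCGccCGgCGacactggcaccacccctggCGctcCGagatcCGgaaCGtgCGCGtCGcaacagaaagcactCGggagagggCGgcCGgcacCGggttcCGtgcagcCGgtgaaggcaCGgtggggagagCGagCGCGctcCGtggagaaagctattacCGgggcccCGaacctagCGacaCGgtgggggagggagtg
The Maml3 sequence held 26 CpG dinucleotides at a GC content of 70.5%, and the other 6 sequences held between 5 and 9 at a GC content of 46 to 56%. None of these 7 central stretches held a match to any of the 11 short motifs described further on, which says only that those letters were absent from these 200 bases.

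A second set shows the motif that was found most often. AP-1 binds TGANTCA, where N is any base. Among the 12 genes with the most members, the 5 with an AP-1 match nearest to a member's centre gave the following 120 bases around that centre, with the match in capitals. This set was chosen after the matches were seen.
Sfi1, chr11:3159825-3159944: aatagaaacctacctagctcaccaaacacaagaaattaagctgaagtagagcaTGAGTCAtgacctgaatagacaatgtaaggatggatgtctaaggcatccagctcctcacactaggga
2010111I01Rik, chr13:63066731-63066850: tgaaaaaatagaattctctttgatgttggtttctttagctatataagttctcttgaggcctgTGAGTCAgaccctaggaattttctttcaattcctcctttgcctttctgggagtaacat
Gm20388, chr8:123737186-123737305: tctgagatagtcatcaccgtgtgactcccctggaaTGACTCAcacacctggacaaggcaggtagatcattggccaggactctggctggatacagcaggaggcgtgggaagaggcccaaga
Fgfr2, chr7:133007484-133007603: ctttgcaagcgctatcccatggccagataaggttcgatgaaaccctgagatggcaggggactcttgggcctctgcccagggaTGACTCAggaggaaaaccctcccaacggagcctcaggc
Etv6, chr6:134148124-134148243: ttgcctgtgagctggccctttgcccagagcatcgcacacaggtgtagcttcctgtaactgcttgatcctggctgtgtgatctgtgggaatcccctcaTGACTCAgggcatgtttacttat
The match lay within 40 bases of the centre in all 5, and each sequence held 1 match. All 5 carried C or G at the middle base, the form that both strands read as TGACTCA or TGAGTCA.

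The members were wide only by comparison with other intronic regions. Their median width was 608 bases (quartiles 540 and 715), against 155 bases for the 18443 narrower intronic regions, 614 for the 1054 intergenic regions of at least 500 bases, and 719 for the 8073 such regions within 2000 bases of a start, here called wide proximal regions. Widths crowded at the lower limit, where 493 members measured 500 to 599 bases and a further 999 intronic regions, not members, measured 400 to 499. Only 148 members (14.2%) reached 800 bases, 43 (4.11%) reached 1000 and 2 exceeded 2000. In all, the members covered 683.2 kb. Of all accessible regions near starts, 42.6% were at least 500 bases wide, compared with 7.02% of exonic, 6.73% of intergenic and 5.36% of intronic regions.

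The name of the set held for most members, with limits that can be measured. Of the members, 116 (11.1%) overlapped an exon in part or whole, since the rule used the centre only. The share among narrower intronic regions was 3.63%. The centre of 72 members (6.89%) lay within the outer bounds of a gene but in no basic transcript. The comprehensive GENCODE set placed a transcription start within 2000 bases of 186 members (17.8%), and RefSeq did so for 158. Either annotation did so for 253.

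At each limit of the rule, members and non-members lay side by side. In the narrowest class of exactly 500 bases were 8 members, one of them in Ahi1, a gene of the primary cilium, at chr10:21023162-21023661. Just outside were 7 regions of 499 bases, one of them in Cpne2 at chr8:94541061-94541559. The member nearest to a start lay 2020 bases from it, in Efna1, which encodes a ligand of Eph receptors. The nearest wide region left out lay 1988 bases from a start, within Ptms and A230083G16Rik.

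The members were spread over many genes. They fell in 917 genes, of which 769 were protein-coding, 141 long noncoding and 7 of other kinds. A protein-coding gene held 921 members (88.1%), the remaining 124 lay in noncoding genes only, and 61 lay in overlapping genes and were counted in each. Of the hosts, 791 held 1 member, 92 held 2 and 21 held 3, while 6 held 4, 4 held 5, 2 held 7 and 1 held 12. The 126 hosts with 2 or more (13.7%, 11.7 to 16.1) together held 304 members, or 29.1% of the set.

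Long genes hosted members most often, but a stretch of their intron did not hold more of them. Protein-coding hosts had a median length of 102.7 kb, against 56.99 kb for the 5394 genes with narrower intronic regions only and 17.6 kb for all 20807. The share of genes with a member rose from 0.566% of those under 20 kb to 12.8% at 100 to 200 kb and 24.8% above 400 kb. Per Mb of intron outside exons and start windows, genes under 20 kb held 1.34 members, those of 100 to 200 kb 1.22, and those above 400 kb 0.494. The narrower intronic regions were at 21.4, 22.9 and 10.3 per Mb in these classes, so the drop above 400 kb was shared. Both densities count only regions placed in an intron of a representative coding transcript (849 members), each in the shortest such host. Intron shared by overlapping genes counts for each gene, and the effect of this on the densities was not tested.

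**Figure D1:**
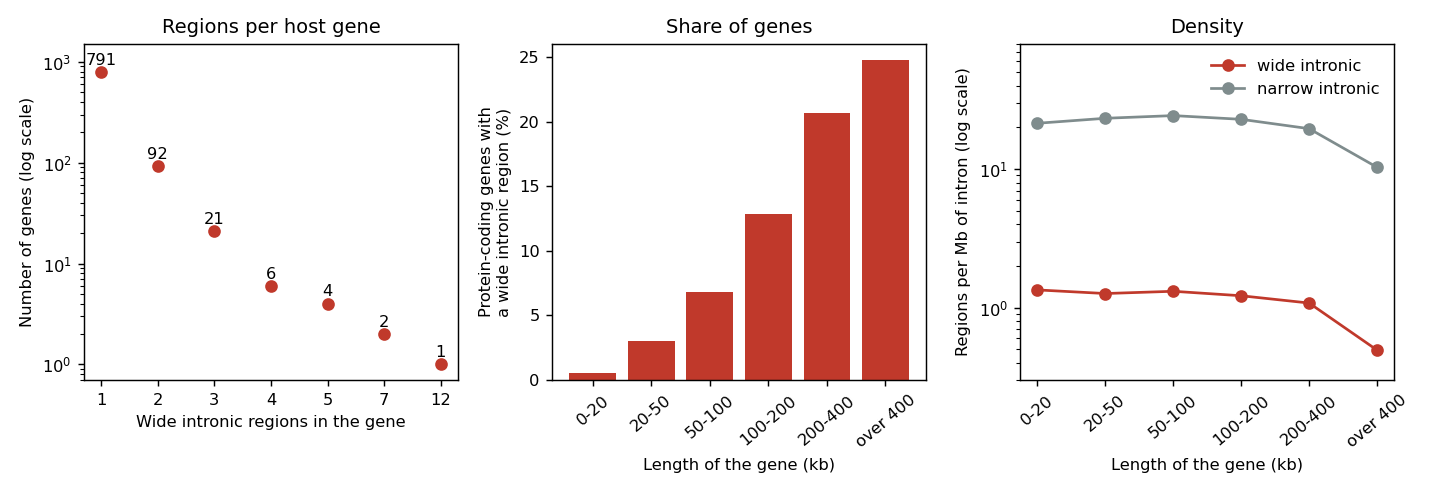
Left, number of genes (points, log scale) by the number of wide intronic regions each held. Middle, share of protein-coding genes with such a region by gene length (kb). Right, wide and narrow intronic regions placed in a representative coding transcript, per Mb of intron by gene length (log scale). The share of genes rose with length to 24.8%, while the density of wide regions fell from 1.34 to 0.494 per Mb.

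Hosts usually had an open promoter as well. A region centred within 2000 bases of one of their starts was found for 674 of 769 protein-coding hosts (87.6%, 85.1 to 89.8), against 83.8% of genes with narrower intronic regions only, 58.3% of genes with no intronic region and 66.0% of all. Length moved with this share. Among genes under 20 kb it was 63.5% in hosts (51.1 to 74.3), below the 74.9% of genes with narrower regions only, and 53.7% in all. At 100 to 200 kb it was 90.7%, 85.9% and 84.2%. Of the hosts, 133 (17.3%) had no narrower intronic region. Starts here were those of the basic set only. The hosts Bicral and 2010111I01Rik counted as having no region at a start, yet a member covered the outer 5' bound of each.

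Members of one gene mostly lay far apart. The 191 pairs of neighbours within a gene had a median gap of 43.0 kb (quartiles 15.4 and 83.0), 51 pairs (26.7%) shared an intron, and 8 were less than 2 kb apart. The smallest gap, 101 bases, was in Bicral, a subunit of the BAF chromatin remodelling complex. Along the chromosomes the median distance from a member to the next was 410.4 kb, and 55 members (5.26%) had another within 10 kb, of which 43 remained when Sfi1 was left out.

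Sfi1, which encodes a protein of the centrosome, stood apart from every other host by its 12 members within 52.5 kb. The gene spans chr11:3131850-3193463, and its members lay in 10 of its 31 introns with gaps of 0.272 to 8.22 kb. Their widths ran from 508 bases to 1226 bases (chr11:3184285-3185510). Of the 12, 9 overlapped an exon, against 11.1% of all members, and 2 held an AP-1 match. Per 100 kb of gene, Sfi1 held 19.5 members and Etv6 2.99. Of the 31-base words in these members, 82.3 to 100% occurred once in the reference, so the reference showed them largely as single-copy sequence. Copies that the reference lacks would escape this measure, and their part in the count was not tested.

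Etv6, an ETS family repressor active in blood and other tissues, held 7 members of 500 to 692 bases spread over 210.6 kb of its 234.5 kb. They lay in introns 1, 2, 3 and 8, with 4 of them in intron 3, which is 85.5 kb long. A match to AP-1 was found in 4 of the 7 and to KLF in 3, and GC content stayed between 45.4 and 54.4%. Every 31-base word of the 7 was unique in the reference.

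In a pair of hosts the count came with a very long gene model. Gm20388 spans 4435 kb in the annotation and its 7 members lay over 3174 kb, 3 of them also within Gse1, Ankrd11 or 6030466F02Rik. Fgfr2, the receptor for fibroblast growth factors that thymic epithelium needs to grow, has a model of 2961 kb. Of its 5 members, 3 lay within the neighbouring genes Htra1, Cpxm2 and Ctbp2, and the one closest to an Fgfr2 start was 115.8 kb from it.

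The other named genes with 4 or 5 members carried no such overlap. Cdkal1, an enzyme that modifies tRNA, had 5 members over 536.3 kb, all at a GC content of 43.7 to 49.3%. Ston2, an adaptor in endocytosis, had 5 within 116.4 kb, 4 of them at a GC content of 40.9 to 52.0% and one CpG-rich at 70.8%. The gene 2010111I01Rik also had 5. Maml3, Hivep3, Arid5b and Xylt1 had 4 each. Maml3 encodes a coactivator of Notch, Hivep3 a zinc finger protein, Arid5b a DNA-binding protein with roles in fat and blood cells, and Xylt1 the enzyme that starts glycosaminoglycan chains.

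**Figure D2:**
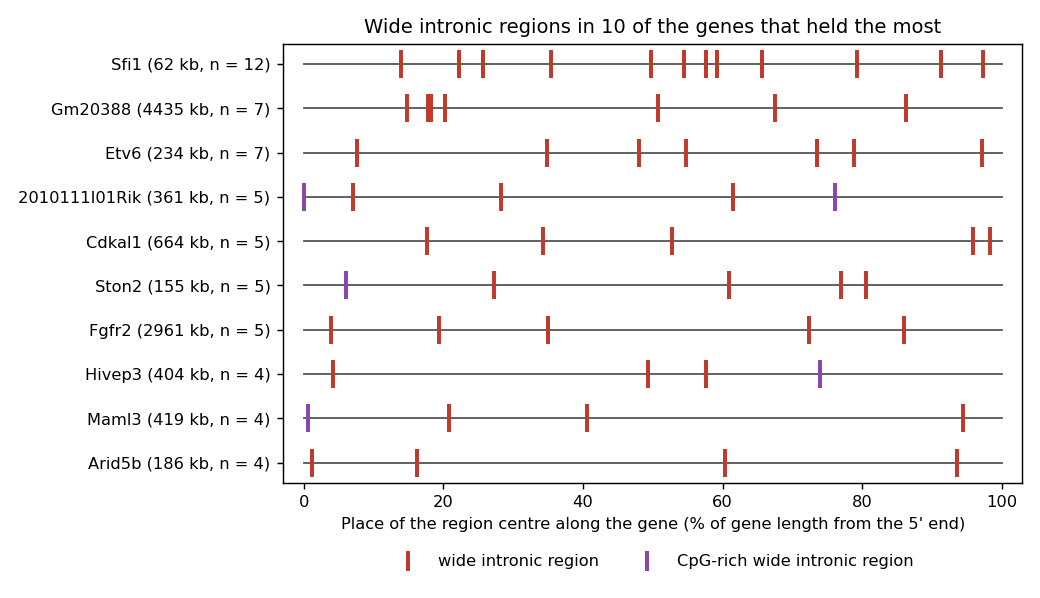
Place of each wide intronic region (mark at its centre) along 10 of the genes that held the most, as a percentage of gene length from the 5' end, with gene length and number of regions beside each name. The 12 regions of Sfi1 ran along most of the gene, and the CpG-rich regions, in purple, were single marks in Hivep3, Maml3 and Ston2 and a pair in 2010111I01Rik.

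The widest members were a mixed group. The widest of all, 2484 bases at chr17:13550688-13553171 within the long noncoding genes 2700054A10Rik and AC174800.1, was 97.8% soft-masked repeat and only 12.1% of its words were unique. The next was 2164 bases in Sp110, a nuclear body protein of the interferon response, at chr1:85591221-85593384. A member of 1612 bases in Zmiz1, a coactivator that works with Notch, had a GC content of 72.3%, and 1290 bases in Vgll4, a TEAD cofactor, had 67.5%. The nearest basic start was 53.2 kb from the first and 47.7 kb from the second. The second nevertheless covered the outer 5' bound of the Vgll4 gene model, at base 114969994 of chromosome 6, as the widest Bicral member did that of Bicral. The rest of the 10 widest lay in Peg3, an imprinted zinc finger gene (1578 bases), Slc9a3r1, a scaffold protein of the epithelial apical membrane (1430), Bicral (1353), Lipc, the hepatic lipase (1291), Tppp, a tubulin-binding protein (1265), and Runx1 (1257).

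Members were found along the whole length of genes, outside the start windows that the rule removed. The median distance to the nearest start of any gene was 14552 bases (quartiles 7435 and 31704), with 36.1% within 10 kb and 138 members (13.2%) beyond 50 kb. Narrower intronic regions had a median of 16244 bases and wide intergenic regions one of 14754. The nearest start belonged to a host gene for 523 members (50.05%), which is near the 49.9% of narrower regions. The nearest annotated start, of any kind of gene, thus often belonged to a gene other than the host. Whether those starts were open was not examined. Along the host transcripts, cut into 4 equal lengths from the 5' end, lay 22.5, 27.7, 25.8 and 24.03% of the members placed in them.

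Of the 849 members that could be placed in an intron of a representative coding transcript, 249 lay in the first intron (29.3%, 26.4 to 32.5). First introns made up 24.3% of the intron sequence that the rule allowed, and held 30.1% of the narrower regions. The second intron held 18.5% of the members and 15.8% of that sequence. The introns with members were long, with a median of 25.7 kb. Among autosomes, the density ran from 0.752 members per Mb of eligible intron on chromosome 14 (36 members) to 1.45 on chromosome 11. The density of narrower intronic regions ran from 17.5 to 20.4. An autosome held 25 to 82 members and 518 to 1450 narrower regions, so these spreads are not comparable. Chromosome 11 carried the 12 members of Sfi1 among its 74.

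In base composition most members were like other distal regions and unlike promoters. Median GC content was 50.8% (quartiles 46.9 and 55.2), against 51.0% in narrower intronic, 50.8% in wide intergenic and 66.8% in wide proximal regions. The ratio of observed to expected CpG, which is low where CpG has been lost through methylation, had a median of 0.262 in members, 0.219 in narrower intronic and 0.825 in wide proximal regions. Repeats covered a median of 7.82% of a member. Fewer than 50% of the words were unique in 13 members (1.24%), as in 0.933% of narrower intronic regions. Of these members, 2 lay in both A530032D15Rik and C130026I21Rik, which overlap, and a further 2 in Gm2619.

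**Figure D3:**
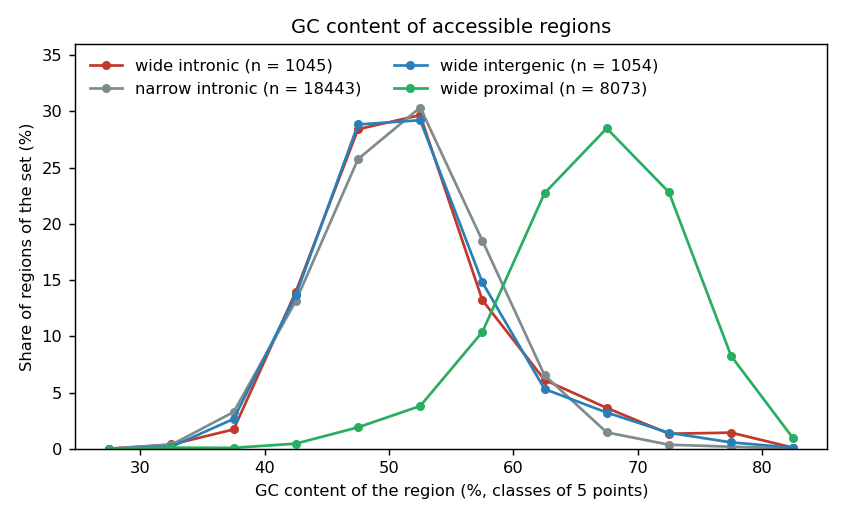
Share of regions (%) in classes of 5 points of GC content, for wide intronic, narrow intronic, wide intergenic and wide proximal regions. The first 3 sets peaked between 45 and 55%, and wide proximal regions between 65 and 70%.

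A minority had the composition of a CpG island. With a GC content of at least 50% and an observed to expected CpG of at least 0.6, limits set after the values were seen, 99 members (9.47%, 7.84 to 11.4) were CpG-rich, against 3.42% of narrower intronic, 11.95% of wide intergenic and 88.5% of wide proximal regions. The share was 6.49% (4.63 to 9.02) among members of 500 to 599 bases, 9.41% at 600 to 799, 12.4% at 800 to 999 and 37.2% (24.4 to 52.1) among the 43 of 1000 or more.

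Starts that the basic set leaves out lay close to most CpG-rich members. The comprehensive set put a start within 2000 bases of 68 of the 99 (68.7%), and of 118 of the other 946 (12.5%). RefSeq did so for 60 (60.6%) and 98 (10.4%). By either annotation 78 of the 99 had such a start and 21 had none. Of the 72 members outside every basic transcript, 28 were CpG-rich. CpG-rich members had a median width of 686 bases, compared with 604 for the others.

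AP-1 was the most frequent of the 11 motifs searched, on both strands, in the central 500 bases. It was present in 403 members (38.6%, 35.7 to 41.5), in 35.4% of narrower intronic regions, in 36.6% of wide intergenic regions and in 6.82% of wide proximal regions. The windows of narrower regions reach beyond the region itself. The form with C or G in the middle was in 32.4% of members and that with A or T in 10.05%. A pair of matches or more was found in 108 members (10.3%), and in 0.694% of wide proximal regions.

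The AP-1 share was lower in the widest and the most GC-rich members. It was 42.0% (37.7 to 46.4) in members of 500 to 599 bases, 39.9% at 600 to 799, 25.7% (18.3 to 34.8) at 800 to 999 and 18.6% (9.74 to 32.6) at 1000 or more. In windows of 45 to 50% GC it was 47.7% in members, 36.6% in narrower intronic and 44.7% in wide intergenic regions. In windows of 60% GC or more it was 12.03, 16.1 and 14.5%. CpG-rich members held it in 6.06% and the others in 42.0%. Base composition alone changes how often 7 letters occur, and its part in these shares was not tested.

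AP-1 matches were denser within 300 bases of a member's centre than further out, without a peak at the centre itself. Within 100 bases of the centre there were 0.928 matches per kb, between 100 and 200 bases 1.13, and between 200 and 300 bases 0.962. Density then fell to 0.498 between 300 and 400 bases and 0.285 between 800 and 1000. The innermost density was 3.26 times the outermost. In narrower intronic regions the innermost 100 bases were the densest, with 1.49 per kb against 0.320 at the outside. In wide proximal regions the centre had fewer (0.125) than the outside (0.247). Wide intergenic regions gave 0.920 and 0.294.

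The NF-kB motif, spelled GGGANTTCC, was found in 9.57% of members (7.93 to 11.5), in 9.49% of wide intergenic, 6.04% of narrower intronic and 3.28% of wide proximal regions. In members it had 0.1675 matches per kb within 100 bases of the centre, 0.273 between 100 and 200, and 0.0407 between 800 and 1000. For the innermost and outermost bases, narrower intronic regions gave 0.2258 and 0.0355 and wide intergenic regions 0.204 and 0.0237. Wide proximal regions gave 0.0756 and 0.0412. The motif AACNGGTT of grainyhead-like (GRHL) factors, which regulate epithelial junction genes, was in 7.08% of members (5.68 to 8.80), 4.97% of narrower intronic and 4.36% of wide intergenic regions. Both were rarer in CpG-rich members, at 2.02%.

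**Figure D4:**
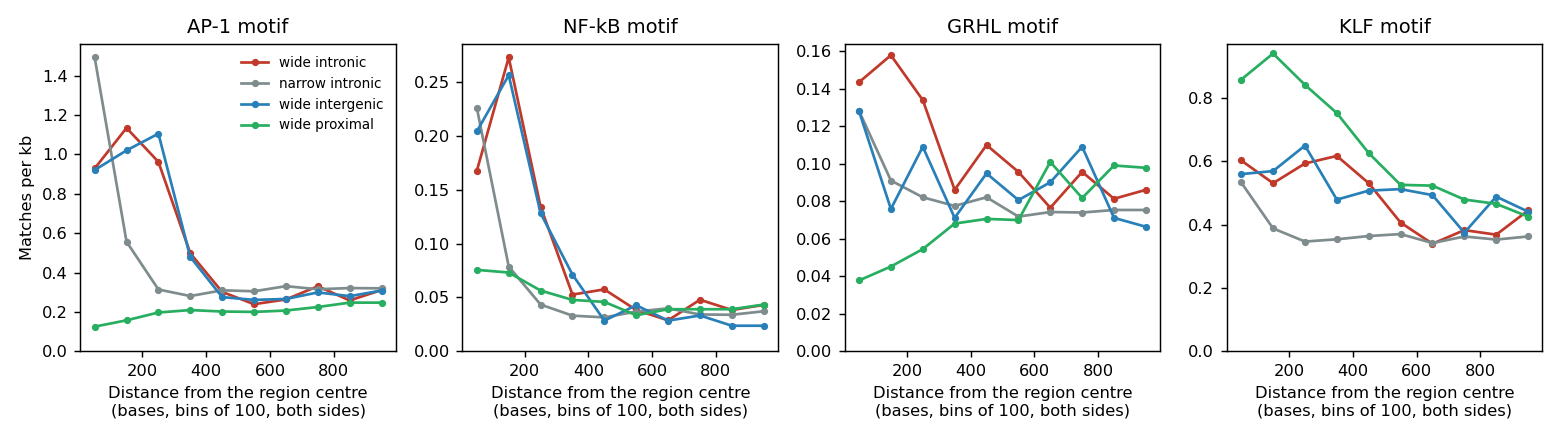
Matches per kb in bins of 100 bases by distance from the region centre, both sides together, for the AP-1, NF-kB, GRHL and KLF motifs in 4 sets of regions. AP-1 and NF-kB were densest within 300 bases of the centre of wide intronic regions and fell to 0.285 and 0.0407 per kb at 800 to 1000 bases. GRHL rests on few matches per bin.

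Among the remaining motifs, the CTCF core CAGGGGGC was in 4.50% of members (3.399 to 5.93), 3.03% of narrower intronic (2.79 to 3.28) and 3.42% of wide intergenic regions. The ETS motif CCGGAAG was in 4.59% of members (3.48 to 6.04), 3.004% of narrower intronic (2.77 to 3.26) and 5.98% of wide intergenic regions. The windows searched had a median GC content of 50.6% in members, 47.8% in narrower intronic and 50.5% in wide intergenic regions. In windows of 45 to 50% GC, CCGGAAG was in 2.79, 2.77 and 3.05%, and at 50 to 55% in 5.42, 4.45 and 7.69%. The part of base composition in these shares was not tested. Members and narrower intronic regions differed less for the RUNX, TEAD, POU, p53 and other ETS motifs. The RUNX motif TGTGGTT was in 13.2% of members and 13.8% of narrower intronic regions, the TEAD motif ACATTCC in 8.13 and 8.08%, and the octamer ATGCAAAT of POU factors in 3.25 and 3.74%. GGGNGTGG, bound by Krueppel-like factors (KLF), was in 20.8 and 17.9%, a wider gap. In windows of 45 to 50% GC it was in 12.9 and 16.7%, and in windows of 55 to 60% GC in 35.5 and 32.4%. The other ETS motif, AGGAAGT, was in 15.02 and 15.49%. The p53 family motif GACATGTC was in 9 members (0.861%) and in 0.705% of narrower intronic regions. At least 1 of the 10 families was matched in all but 260 members (24.9%), with 400 matched by 1 family, 274 by 2 and 111 by 3 or more.

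Wide proximal regions showed another profile, with CCGGAAG in 21.4% and GGGNGTGG in 33.0%. The CpG-rich members lay between, at 12.1 and 29.3%. They held the CTCF core in 10.1%, against 3.91% of the other members and 7.21% of wide proximal regions. CpG-rich wide intergenic regions held these motifs in 15.87, 30.95 and 7.14%. In windows of 60% GC or more the CTCF core was in 14.3% of members, 10.8% of narrower intronic and 9.40% of wide intergenic regions. The order was not the same in other windows. At 55 to 60% GC the shares were 6.38, 7.43 and 7.14%, at 50 to 55% 3.39, 4.03 and 2.01%, and at 45 to 50% 2.79, 2.05 and 2.37%. CCGGAAG itself contains a CpG, and the part of base composition in these shares was not tested.

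**Figure D5:**
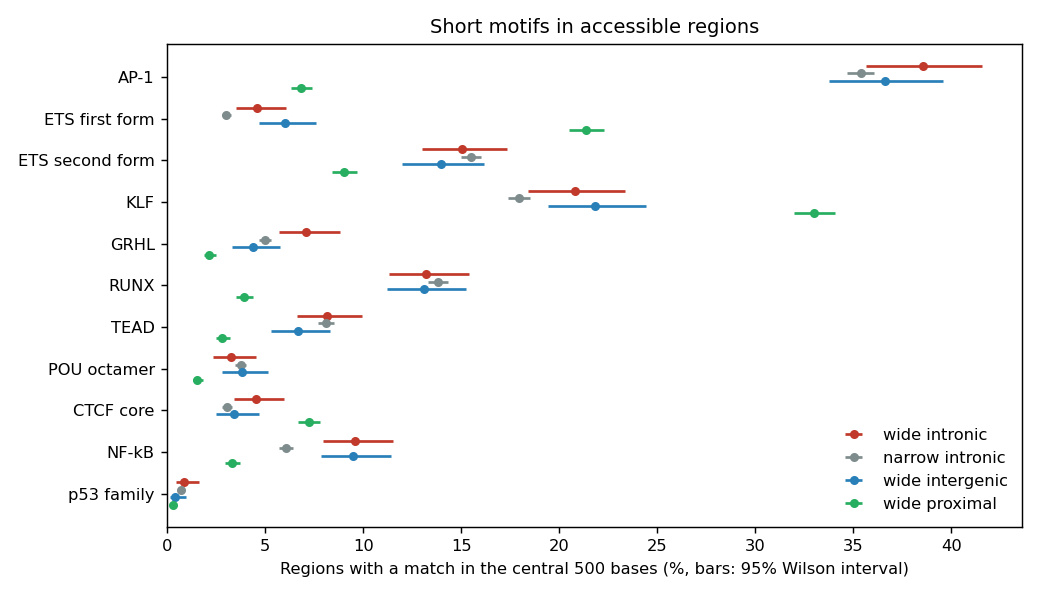
Share of regions (%) with a match in the central 500 bases, with 95% Wilson intervals, for 4 sets of regions. The first ETS form is the one with the CpG and the second the one without. Wide intronic regions lay near narrow intronic and wide intergenic regions for most motifs, and wide proximal regions lay apart, with 6.82% for AP-1.

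Among lists of genes relevant to mTECs, the Notch pathway had the highest share of hosts. Of its 17 genes, 6 held a member (35.3%), with 11 members in all, beside 3.70% of all protein-coding genes. The list had a median gene length of 24.2 kb. All lists were chosen with earlier results of these data known, so this rank only describes them. Jag1, a Notch ligand, held a pair that differed in kind. The one at chr2:137098084-137098586 had a GC content of 47.9% and an AP-1 match, and the one at chr2:137114262-137114827 was CpG-rich at 64.1%, 2.10 kb from the Jag1 start. Of the receptors, Notch3 and Notch4 held members. That of Notch4 (895 bases, GC 69.1%) had its centre in the last intron, which is only 0.159 kb long, so that most of it lay outside that intron and it overlapped exons. It was 2.45 kb from the start of another gene, and Notch4 itself had no region at its start.

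Rbpj, the DNA-binding partner of Notch, held members at chr5:53470854-53471387 and chr5:53509378-53509933, 84.7 and 46.2 kb from the nearest Rbpj start. Both lay upstream of every basic Rbpj start, within the outer bounds of the gene but in no basic Rbpj transcript. The coactivator Maml3 held 4. Its widest (chr3:52101972-52103056, 1085 bases, GC 67.9%) lay 2.56 kb from the Maml3 start in intron 1, and the other 3 had a GC content of 44.9 to 57.03% and lay over 80 kb from it. Lfng, a sugar transferase that modifies Notch receptors, was the sixth host.

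Transcription factors of epithelia came next, with 4 of 27 genes. The median gene length of this list was 55.8 kb, against 17.6 kb for all protein-coding genes. Grhl1 and Tead3 held 1 member each, and Runx1 and Wwtr1, the latter a partner of TEAD factors, held 2 each. In Runx1 these were 1257 bases in intron 6 (chr16:92631012-92632268) and 731 bases in intron 5 (chr16:92653909-92654639), with GC contents of 54.1 and 49.9%. The member of Wwtr1 at chr3:57501546-57502218 held matches to AP-1, NF-kB and TEAD.

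Other lists held few or none. Of 24 ETS factor genes, Etv6 and Elk3 were hosts, with 8 members between them, and no Krueppel-like factor gene was among 16. In the NF-kB pathway Nfkb1, which encodes the p50 subunit, was 1 host of 22 genes, with a member of 510 bases in intron 1 (chr3:135674782-135675291) that held an AP-1 match. From the list of junction and adhesion genes, Itga6 (the laminin-binding integrin alpha chain) held 1 with an AP-1 match in intron 2 (chr2:71801747-71802426). Among 16 tuft cell genes Plcg2, a phospholipase of receptor signalling, held one of 1232 bases in intron 5 (chr8:117561668-117562899).

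The list of thymic epithelial regulators, with Aire, Fezf2 and Foxn1 among its 18 genes, held no member. All 18 had a region at a start and 9 had a narrower intronic region. Low counts for short lists say little, since 3.70% of 18 genes would be fewer than 1.

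Genes of other cell types of the thymus, which the CD45 depletion and the EpCAM gate were meant to remove, were also looked up. Of 20 thymocyte genes none held a member and 4 had a region at a start. One host was found in each of the fibroblast (12 genes, 5 with a region at a start), endothelial (10 and 3) and myeloid lists (12 and 5). A region at a start was found for 66.0% of all protein-coding genes. The share of hosts was 8.33, 10 and 8.33% in these lists, on 1 host each, beside 3.70% of all protein-coding genes. Median gene length was 38.35, 68.4 and 26.3 kb in these lists, against 17.6 kb for all protein-coding genes. These hosts were Fbn1, a fibrillin of connective tissue, with 636 bases in its last intron, Pecam1, an adhesion molecule of endothelium, with 1111 bases at chr11:106674641-106675751, and Cx3cr1, a chemokine receptor of myeloid cells. The Cx3cr1 member lay 104.9 kb from the nearest Cx3cr1 start and also within Ttc21a. Pecam1 had no region at its own start. Their share from other cells was not tested.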

How the data were processed

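ATAC-seq was performed by the authors on 8 samples of sorted mTECs. Per the methods and the submitters' processing notes, reads were aligned to mm10 with Bowtie2, filtered with SAMtools, freed of duplicates with Picard, called as broad peaks with MACS2, merged with bedtools, annotated with HOMER and counted with featureCounts 2.0.3. Whether the peak caller ran on each sample or on a pool is not given in the sources used here. The deposited values used were start, end and width of each consensus region in bases, so width depends on peak calling and merging, and removal of multimapping reads thins out repeated sequence. The 8 columns of deposited read counts matched no sample label and were not used, so the depth of each sample was not analysed.

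Regions were classed by their centre with basic GENCODE M21. Sequence came from GRCm38, the assembly behind mm10, where 0 regions ran past a chromosome end. Soft-masked bases were counted as repeats, and 31-base words were counted on both strands of the autosomes, X and Y. Motifs were searched on both strands in the central 500 bases. Introns were numbered in 1 representative coding transcript per gene. Named genes were the 12 hosts with the most members, the hosts of the 10 widest members, up to 4 hosts per gene list by summed member width (all where a list had no more), and the members at the limits of the rule. Some of these are not reported here. Notch3 and Lfng complete a count and were named after it was seen. The members and lists were chosen with earlier results of these data known. The functions were tested on simulated data. Python 3.11.15, numpy 2.4.6, pandas 2.3.3, numba 0.67.0 and matplotlib 3.10.9 were used.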

Additional observations from a re-analysis of the deposited data

How the results depend on the processing

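No paired analysis was possible because no per-sample value entered any result. Of 89 recomputed values, 62 kept their size, which for a count means within 1.5 times and for a share or median within its interval. A minimum width of 400 bases gave 2044 members in 1622 hosts, 20.65% of them with 2 or more, a median distance to a start of 16184 bases, AP-1 in 43% and a CpG-rich share of 6.605%. A minimum of 800 gave 148 members in 148 hosts, 3.378% with 2 or more, 81.6% of coding hosts with a promoter region, a median GC content of 52.95%, AP-1 in 23.65% and a CpG-rich share of 19.59%. With all transcripts of the annotation the values were 92.49% with a promoter region, a GC content of 49.89%, a distance of 12473 bases, AP-1 in 42.22% and a CpG-rich share of 3.538%. The distance was 23790 bases with protein-coding genes only, 12656 with a limit of 1000 bases from a start and 18309 with 5000, and the CpG-rich share was 12.89% and 7.649% under those limits. Every recomputed CpG-rich share was added after seeing the data, as were the alternatives on RefSeq starts, unique words and Sfi1. Leaving out members near a RefSeq start gave 11.52% of hosts with 2 or more, a GC content of 50%, AP-1 in 41.6% and a CpG-rich share of 4.397%. The cause of these shifts was not tested. Width, and with it membership, depends on peak calling, and no value speaks for a single group or replicate.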
